A study of Mus musculus with 3 samples.

Results

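The 8 genes described here, Tlx1, Tlx2, Tlx3, Phox2a, Ret, Elavl3, Elavl4 and Tubb3, act in neurons, among them those of the gut wall. They were read as the 200-bp bins that overlap each gene's mm10 span and 5 kb on either side, in a table of methylated DNA coverage in mouse proximal colon organoids. That gave 1697 of the 12313737 bins, or 0.0138%. Of these, 792 bins belong to Elavl4, 281 to Ret, 236 to Elavl3, 104 to Tubb3, 85 to Tlx1, 73 to Phox2a, 65 to Tlx3 and 61 to Tlx2.

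All organoids were derived from mice with 1 Cre-activable copy of BrafV600E, the Braf+/LSL genotype. They were grown from crypts of the first 2.5 cm of proximal colon of male mice aged about 40 days. The Braf Base medium library came from organoids given Cre by lentivirus, cultured 5 months and grown for 3 weeks in Base medium, which leaves out the niche factors that stem cells need. The Braf full medium library had the same Cre delivery and culture, and its last 3 weeks were in full medium with Wnt3a, R-Spondin, Noggin and EGF. The EV library came from organoids given the lentiviral backbone without Cre, cultured 5 months and then 3 weeks in full medium. Each group held 1 library and nothing in the labels says whether the libraries came from separate mice. The differences below therefore rest on single libraries, without a replicate check, p-value or SD.

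The assay was MBD-seq: sheared DNA is pulled down with a protein domain that binds methylated CpG sites, and what it holds is sequenced. A value is normalised coverage per 200-bp bin. It grows both with methylation and with the number of CpG sites, and it is not a percentage. In a bulk culture, more methylated cells and more methylated sites per cell cannot be told apart. An estimated 5985362 reads lay behind the Braf Base medium library, 8648828 behind the Braf full medium library and 5041726 behind EV. No read fell in 83.0%, 43.3% and 87.2% of all bins in the same order, and background coverage, the mean over 1-kb tiles that stayed low in all 3 libraries, was 0.00603, 0.0400 and 0.00567. A low, even coverage in Braf full medium is thus present across the genome. A start window reaches 1 kb to each side of a gene's start. After 0.0597 was added to each library, a log2 ratio of 1 or more made a window gained and one of -1 or less made it lost, provided that 1 of the libraries reached 0.119. Intervals are exact binomial 95% intervals on estimated reads and cover counting error only.

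Tlx1, Tlx2 and Tlx3 are homeobox transcription factors. In the mouse, Tlx1 is required for the spleen, Tlx2 for normal enteric neuron numbers, and Tlx3 for fate choice of sensory and hindbrain neurons. Phox2a is a homeobox factor of noradrenergic and autonomic neurons. Ret is the receptor tyrosine kinase through which glial-cell-line-derived neurotrophic factor guides neural crest cells into the gut. Elavl3 and Elavl4 encode the neuronal RNA-binding proteins HuC and HuD, widely used to mark enteric neurons, and Tubb3 encodes the neuronal class III beta-tubulin. Crypt organoids are grown from epithelium, of which neurons are not a part, and DNA methylation of CpG-rich starts of developmental genes is a known feature of transformed epithelium. Coverage at a gene does not show whether the gene is expressed.

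Promoter sequences show how unevenly CpG sites lie at these starts. RefSeq promoters on GRCm38.p6, the assembly behind mm10, run from 250 bases before a start to 50 after it. They were matched for 6 of the 8 genes, and Tlx2 and Ret had no entry. The 4 below are shown because they differ most in coverage: Phox2a is covered in every library, Elavl4 most in Braf Base medium, Tlx1 most in EV, and Tubb3 hardly at all. Each is written 5′ to 3′ on the gene's strand, with every CpG (the letters CG, which read the same on both strands) in capitals. Of all 32851 promoters in the table, 94.6% hold at least 1 CpG, and the median is 7.
Phox2a, chr7:101818063-101818362, plus strand: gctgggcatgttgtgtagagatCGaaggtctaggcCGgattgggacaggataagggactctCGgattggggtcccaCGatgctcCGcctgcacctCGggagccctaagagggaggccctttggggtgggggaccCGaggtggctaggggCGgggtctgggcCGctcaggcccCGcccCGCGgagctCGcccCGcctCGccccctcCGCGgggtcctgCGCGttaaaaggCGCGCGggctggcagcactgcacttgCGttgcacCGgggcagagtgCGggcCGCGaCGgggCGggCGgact
Elavl4, chr4:110351862-110352161, minus strand: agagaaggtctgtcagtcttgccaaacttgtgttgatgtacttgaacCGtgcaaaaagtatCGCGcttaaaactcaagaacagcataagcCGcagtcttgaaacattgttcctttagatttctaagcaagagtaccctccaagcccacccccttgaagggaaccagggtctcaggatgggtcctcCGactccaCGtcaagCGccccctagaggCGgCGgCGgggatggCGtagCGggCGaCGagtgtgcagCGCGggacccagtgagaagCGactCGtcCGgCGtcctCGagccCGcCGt
Tlx1, chr19:45150465-45150764, plus strand: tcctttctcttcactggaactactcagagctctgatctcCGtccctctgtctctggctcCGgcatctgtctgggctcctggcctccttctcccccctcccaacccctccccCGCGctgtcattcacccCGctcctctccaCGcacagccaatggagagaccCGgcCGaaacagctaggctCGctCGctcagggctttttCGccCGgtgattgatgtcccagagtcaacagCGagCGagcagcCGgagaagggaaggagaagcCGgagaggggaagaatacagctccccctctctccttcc
Tubb3, chr8:123411303-123411602, plus strand: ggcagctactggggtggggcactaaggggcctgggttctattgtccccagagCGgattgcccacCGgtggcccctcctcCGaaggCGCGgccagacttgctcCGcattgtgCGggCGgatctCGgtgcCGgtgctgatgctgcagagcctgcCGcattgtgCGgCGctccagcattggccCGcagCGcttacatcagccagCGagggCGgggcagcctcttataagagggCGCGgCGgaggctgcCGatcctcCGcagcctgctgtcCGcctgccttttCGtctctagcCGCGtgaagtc

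The Phox2a promoter holds 30 CpG, a count that 11.7% of all promoters reach, and its bins had a coverage of 2.59 in Braf Base medium, 3.09 in Braf full medium and 2.38 in EV. The Elavl4 promoter holds 23 CpG and had 1.94, 0.294 and 0.703 in the same order. The Tlx1 promoter holds 16 CpG and had 0.185, 0.147 and 0.778. Braf Base medium was thus highest at the Elavl4 promoter and EV at the Tlx1 promoter. The Tubb3 promoter holds 26 CpG, a count reached by 16.9% of all promoters, and had only 0.0864, 0.0653 and 0.0167. The Elavl3 promoter, with 29 CpG, had 0.445, 0.147 and 0.134, and the Tlx3 promoter, with 18 CpG, had 0.729, 0.0817 and 0.385. CpG count and coverage therefore did not go together from one of these starts to the next. Elavl4 has a further 3 promoter entries about 64 kb inside the gene, with 4, 5 and 6 CpG. No read fell on 2 of them in any library, and the third had 1 estimated read, in Braf full medium.

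The 8 genes gave 10 start windows, because Tlx2 and Ret, whose strand the tables do not give, entered with both the low-coordinate and the high-coordinate end. In Braf Base medium against EV, 3 windows were gained (Tlx2 low end, Elavl3, Elavl4) and 1 was lost (Tlx1), where 4.74% of all 24866 start windows were gained and 1.4% lost. In Braf full medium against EV, 3 were gained (both ends of Tlx2, and Elavl3) and 0 lost, where 6.0% of all were gained and 0.676% lost. In Braf Base medium against Braf full medium, 1 was gained (Elavl4) and 2 were lost (both ends of Tlx2), where 1.62% of all were gained and 3.37% lost. The median log2 ratio of the member windows was 0.55, 0.83 and -0.35 in these comparisons, beside 0, 0.68 and -0.64 over all start windows. Tlx2 and Ret each count as 2 windows in these counts and medians, and the 2 windows of Tlx2 overlap. Counted by gene, 5.62%, 7.09% and 1.95% of all genes were gained in the 3 comparisons, and 1.64%, 0.803% and 3.95% lost. The comparisons share libraries, EV in the first 2 and Braf full medium in the last 2. With 4 times the added value, 0 windows were called in Braf Base medium against EV, and with a minimum of 5 times the mean coverage Tlx2 was no longer called there.

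Deposited scaling decides part of that split. Setting all libraries to equal totals shifts log2 coverage by 0.19 in Braf Base medium and by -0.70 in Braf full medium, relative to EV. With it the split was 4 gained and 1 lost in Braf Base medium against EV, 2 gained and 2 lost in Braf full medium against EV, and 2 gained and 2 lost in Braf Base medium against Braf full medium. Tlx2 stayed gained in Braf full medium at both ends under that setting, with log2 ratios of 3.11 and 2.49. Coverages and folds below are as deposited unless equal totals are named. The shares over all windows, tiles or genes are always as deposited. Counts under another setting have no such share beside them.

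**Figure D1:**
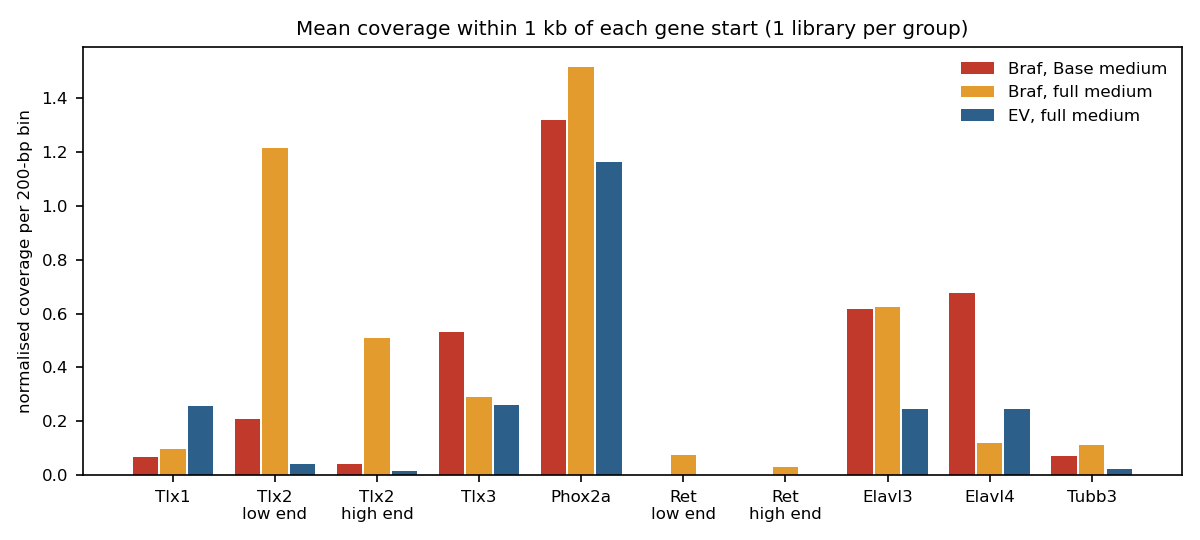
Bars give mean normalised coverage per 200-bp bin (y axis, from 0) within 1 kb of each gene start, or of each gene end for Tlx2 and Ret (x axis). Each bar is 1 library, with Braf Base medium in red, Braf full medium in orange and EV in blue; Tlx2 stands highest in Braf full medium (1.22 at its low end), Elavl4 in Braf Base medium (0.677) and Tlx1 in EV (0.256).

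Tlx2 (chr6:83068325-83070225) had the widest spread. Its low end window stood at 0.209 in Braf Base medium (25 estimated reads), 1.22 in Braf full medium (113 reads) and 0.0411 in EV (4 reads). Its high end stood at 0.0404, 0.508 and 0.0137. Braf full medium was thus far above both other libraries at either end of the gene. The low end was 29.6-fold higher in Braf full medium than in EV (95% interval 10.2 to 100.2), and 5.08-fold higher in Braf Base medium than in EV (1.59 to 18.2). Braf Base medium was in turn 5.82-fold below Braf full medium (3.75 to 9.38). The high end was 12.6-fold lower in Braf Base medium than in Braf full medium (4.84 to 39).

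The bin profile resolves Tlx2 into covered blocks, taken as runs of bins in which at least 1 library reached 0.25. That threshold was set after the profiles were seen, so block values are a description. A block can enter through 1 library alone, so part of the difference between libraries comes from the choice of blocks. A block of 1000 bp inside the gene, from 83068401 to 83069400, had 0.459 in Braf Base medium, 2.66 in Braf full medium and 0.0803 in EV. A block of 600 bp across the high end had 0.123, 1.26 and 0.0167. A block of 800 bp outside the low end lies in the neighbour Dqx1, a gene of the DEAQ-box RNA helicase family, and had 0.908, 1.51 and 1.0. The 3 libraries therefore lay within a factor of 1.66 of each other at the Dqx1 block, whereas the block inside Tlx2 was 33.1-fold higher in Braf full medium than in EV (11.8 to 174.5).

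Start windows most like the low end of Tlx2 across the 3 libraries, by Euclidean distance of log2 coverage over all 24866 windows, were those of Ihh (distance 0.35), which encodes Indian hedgehog, St6galnac4 (0.76), a sialyltransferase gene, and the zinc finger gene Zfp37 (0.78). Ihh had 0.253 in Braf Base medium, 0.998 in Braf full medium and 0.0411 in EV.

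Tlx3 (chr11:33200752-33203588, minus strand) was covered at its start in every library, but at different bins. Its start window stood at 0.532 in Braf Base medium, 0.290 in Braf full medium and 0.260 in EV, and no comparison reached a call as deposited. It was gained in Braf Base medium against EV and against Braf full medium with equal totals (log2 ratio 1.53 over Braf full medium), and so it was with windows of 500 bp to each side (1.02 over EV and 1.88 over Braf full medium). The 600 bp from 0.8 to 0.2 kb upstream of the start had 0.432, 0.163 and 0.837, from 14, 4 and 20 estimated reads. EV was highest there, 5.12-fold above Braf full medium (95% interval 1.76 to 21.2). It was 1.94-fold above Braf Base medium, with an interval (0.931 to 4.15) that includes equal coverage. The 4 bins from 0.2 kb upstream to 0.6 kb downstream had 0.954, 0.171 and 0.0878, from 42, 6 and 3 estimated reads. Braf Base medium was highest at these bins, 10.9-fold above EV (3.30 to 52.0) and 5.56-fold above Braf full medium (2.30 to 15.6). The 3 bins from 0.6 to 1.2 kb downstream had 0.235 in Braf Base medium, 0.653 in Braf full medium and no read in EV. Braf full medium was highest there, at least 5.24-fold above EV, taking 3 reads as the most that a count of 0 allows. These stretches were drawn after the profile was seen, and the intervals do not allow for that choice.

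Further into Tlx3, a block from 1.6 to 2.8 kb had 0.0309 in Braf Base medium, 0.686 in Braf full medium and 0.343 in EV. Braf Base medium was thus 22.2-fold below Braf full medium (5.80 to 194) and 11.1-fold below EV (2.55 to 97.3), inside a gene whose start it covered most. A block of 600 bp just past the gene's end had 0.605 in Braf Base medium, 0.702 in Braf full medium and no read in EV, at least 4.85-fold and 5.63-fold above EV.

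Tlx1 (chr19:45150092-45156943, plus strand) went the other way at its start. Its start window stood at 0.0674 in Braf Base medium, 0.0980 in Braf full medium and 0.256 in EV, and was called lost in Braf Base medium (3.79-fold lower than in EV, 95% interval 1.68 to 10.1). In Braf full medium it was 2.61-fold lower than in EV (1.2 to 6.61), with a log2 ratio just short of the threshold. It was called lost there with equal totals (-1.46), with the background subtracted (-1.40) and with the added value divided by 4 (-1.26). The block behind it, 800 bp from 45150401 to 45151200, holds the promoter printed above and had 0.157, 0.196 and 0.665. Background coverage in the 5 Mb on either side of Tlx1, relative to each library's own average, was 1.38 in Braf Base medium, 1.12 in Braf full medium and 1.74 in EV, so EV was also the highest in the surrounding sequence. With that local background divided out, the log2 ratios became -0.93 and -0.49 and neither was called. The loss call in Braf Base medium also ended with windows of 500 bp or 2 kb to each side, with 4 times the added value and with a minimum of 5 times the mean coverage. Windows are centred on 45150092, before the block that starts at 45150401, so that of 500 bp to each side leaves most of the block out. At no other member did the local background of EV lie further from that of either Braf library.

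A second Tlx1 block, 600 bp long and about 2 kb past the gene's end, had 0.593 in Braf Base medium, 0.474 in Braf full medium and no read in EV. It was at least 4.75-fold and 3.8-fold above EV. Tlx1 and Tlx3 thus each had a block beyond the gene's end that was covered in both Braf libraries and at which EV had no read.

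**Figure D2:**
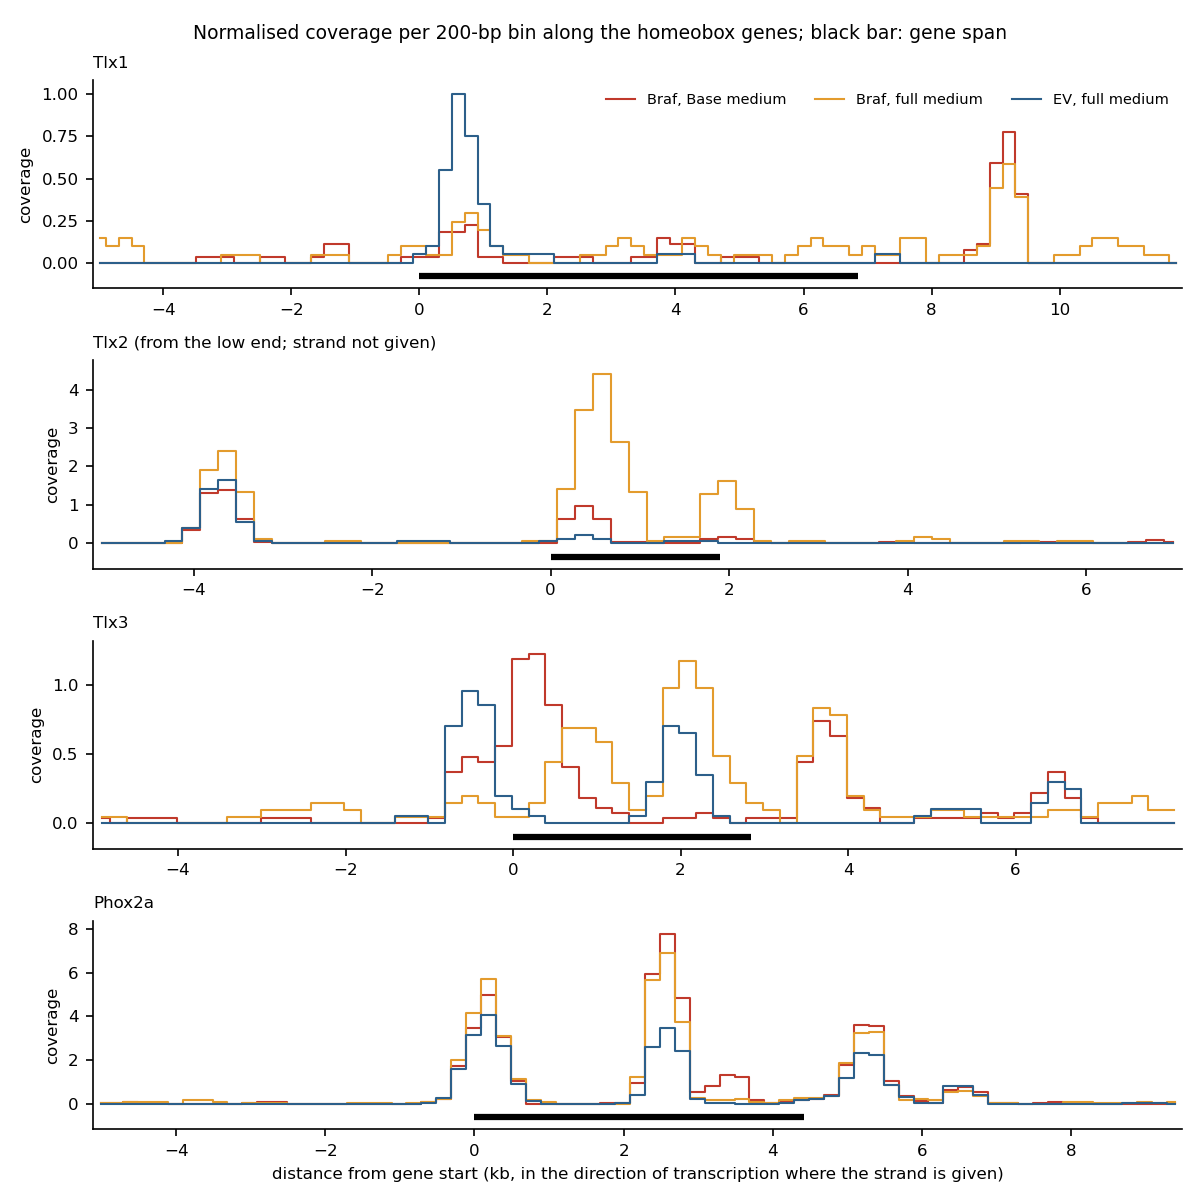
Normalised coverage per 200-bp bin (y axis) against distance in kb from the gene start (x axis) for Tlx1, Tlx2, Tlx3 and Phox2a, with 1 line per library and the gene span as a black bar; y axes differ between panels. The Tlx2 peak inside the gene reaches 4.41 in Braf full medium, the peaks near the Tlx3 start sit at different bins in each library, and the Phox2a peaks coincide.

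Phox2a (chr7:101818313-101822726, plus strand) carried the most coverage of the 8 start windows counted per gene, in every library: 1.32 in Braf Base medium, 1.51 in Braf full medium and 1.16 in EV. These lay within 1.30-fold of each other, and no comparison was called. Equal totals turned the log2 ratio of Braf full medium over EV to -0.31 and that of Braf Base medium over Braf full medium to 0.67, against 0.36 and -0.19 with the deposited scaling, so no direction is given for them. Inside the gene, a block of 1600 bp had 2.92, 2.28 and 1.15, which put Braf Base medium 2.54-fold (1.94 to 3.32) and Braf full medium 1.98-fold (1.49 to 2.64) above EV. The log2 ratio of Braf full medium over EV was 0.27 there with equal totals, against 0.95 as deposited. Its last 4 bins form a shoulder that stood at 0.972 in Braf Base medium, 0.184 in Braf full medium and 0.0753 in EV. The shoulder was 5.29-fold higher in Braf Base medium than in Braf full medium (2.30 to 15.6), while the main peak beside it differed by 1.11-fold (0.897 to 1.38). With equal totals the log2 ratios of Braf Base medium over Braf full medium were 2.83 at the shoulder and 1.04 at the main peak. The blocks past the Phox2a end lie in Inppl1, an inositol phosphatase gene whose annotated span overlaps that of Phox2a, and differed by at most 1.49-fold as deposited. The second of them, with equal totals, reached a log2 ratio of 1.13 for Braf Base medium over Braf full medium and of -1.03 for Braf full medium over EV.

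Ret (chr6:118151748-118197744) had next to no coverage at its ends. No read fell within 1 kb of either end in Braf Base medium or EV, which allows a coverage of up to 0.0251 and 0.0340. In Braf full medium the low end had 0.0757 and the high end 0.0312, beside a median of 0.0579 over all start windows of that library. Over the gene's span, coverage was 0.0138 in Braf Base medium, 0.0719 in Braf full medium and 0.0359 in EV, so Braf full medium was highest. At most of the covered blocks inside the gene EV was highest instead. A block of 1000 bp from 118167801 to 118168800 had 0.0963 in Braf Base medium, 0.157 in Braf full medium and 0.703 in EV, 7.30-fold lower in Braf Base medium (2.9 to 25.2) and 4.48-fold lower in Braf full medium (1.80 to 11.4) than in EV. A block of 800 bp from 118176001 to 118176800 had 0.0556, 0.331 and 0.427, 7.68-fold lower in Braf Base medium than in EV (2.18 to 86.1). EV was also highest at 3 further Ret blocks, but these held only 2, 5 and 5 estimated reads in EV, and no interval there excluded equal coverage. Braf full medium was highest at the sixth block. Over all 281 bins, coverage was 0.0125 in Braf Base medium, 0.0703 in Braf full medium and 0.0334 in EV. That total for Braf full medium is spread thinly, since only 17.6% of it lay in the blocks, against 28.4% in Braf Base medium and 72.2% in EV.

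Elavl4 (chr4:110203737-110351939, minus strand) is the longest member, and its start set Braf Base medium apart. The start window stood at 0.677 in Braf Base medium (81 reads), 0.120 in Braf full medium (11 reads) and 0.246 in EV (22 reads). It was gained in Braf Base medium, 2.75-fold above EV (1.68 to 4.57) and 5.63-fold above Braf full medium (3.03 to 11.9). Braf full medium was 2.05-fold below EV (0.979 to 4.81) and not called as deposited (log2 ratio -0.77), but it was lost with equal totals (-1.25) and with the background subtracted (-1.10). In the block of 800 bp across the start, the values were 1.80, 0.294 and 0.678, which put Braf full medium 2.31-fold below EV (1.05 to 5.48). The peak bin there reached 2.63 in Braf Base medium. Local background around Elavl4 was 0.807, 0.949 and 0.971 in the same order, so Braf Base medium, the highest library at the start, had the lowest background around it.

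At the other covered blocks of Elavl4 the libraries came together or EV led. Over the gene's span Braf full medium was highest instead, with 0.0803, against 0.0416 in Braf Base medium and 0.0501 in EV. Only 47.6% of the Braf full medium coverage of the region lay in blocks, against 90.3% in Braf Base medium and 88.1% in EV. A block of 1200 bp about 30 kb into the gene was the strongest of the gene in every library, with 3.45 in Braf Base medium, 4.27 in Braf full medium and 4.27 in EV. Braf Base medium was 1.24-fold below EV there (1.02 to 1.51), with 225 estimated reads in Braf Base medium, 216 in Braf full medium and 206 in EV. With equal totals Braf full medium stood below EV there, with a log2 ratio of -0.69. A block about 53 kb in had no read in Braf Base medium, 0.114 in Braf full medium and 0.452 in EV, at least 4.91-fold lower in Braf Base medium than in EV.

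Elavl3 (chr9:22015005-22052146, minus strand) was gained in both Braf libraries at its start window, with 0.616 in Braf Base medium, 0.624 in Braf full medium and 0.246 in EV. The fold over EV was 2.50 (1.52 to 4.19) in Braf Base medium and 2.53 (1.51 to 4.30) in Braf full medium, and with equal totals the call in Braf full medium ended (log2 ratio 0.54, against 1.16 as deposited). Both calls ended with windows of 2 kb to each side, and that in Braf full medium also with windows of 500 bp. The 3 bins from the start to 0.6 kb downstream had 0.667 in Braf Base medium, 0.212 in Braf full medium and 0.117 in EV. Braf Base medium was 5.69-fold above EV there (1.62 to 28.2). Braf full medium was 1.81-fold above EV, with an interval (0.308 to 10.2) that includes equal coverage. These bins held 5 of the 58 estimated reads of its start window, which reaches into the near edge of the main peak. The main peak, centred 1.4 kb downstream, was high in all libraries: 5.08, 4.39 and 2.9 over its 6 bins.

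A block of 800 bp about 3.7 kb upstream of Elavl3, at the nearer edge of the zinc finger gene Zfp653, had 1.52 in Braf Base medium, 2.39 in Braf full medium and 0.125 in EV. It was 12.1-fold (4.53 to 45.9) and 19-fold (7.23 to 72.3) above EV. At the other end of Elavl3 a block of 1000 bp, about 33 kb from the start, had 1.40, 1.45 and 2.58 and was 1.84-fold (1.35 to 2.51) and 1.78-fold (1.28 to 2.48) below EV. The log2 ratio of Braf full medium over EV there was -1.48 with equal totals, against -0.81 as deposited. A block about 15 kb in had 0.0988, 0.229 and 0.619. So the Zfp653 block was higher in both Braf libraries than in EV, and the blocks about 15 and 33 kb into Elavl3 were lower, under either scaling. At 15 kb, Braf full medium was 2.71-fold below EV, with an interval (0.965 to 8.28) that includes equal coverage. Over the whole Elavl3 span EV was lowest instead, with 0.225 in Braf Base medium, 0.247 in Braf full medium and 0.184 in EV as deposited. For the block across the Elavl3 start, the log2 ratio of Braf full medium over EV was 0.59 as deposited and -0.09 with equal totals.

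Tubb3 (chr8:123411553-123422015, plus strand) had a start window of 0.0707 in Braf Base medium (8 reads), 0.111 in Braf full medium (10 reads) and 0.0228 in EV (2 reads). All 3 were under the minimum of 0.119 for a call. Its coverage lay at the gene's end, where a block of 1600 bp had 1.88, 2.09 and 3.06, 1.63-fold lower in Braf Base medium (1.32 to 2.02) and 1.47-fold lower in Braf full medium (1.17 to 1.83) than in EV. A block in the neighbour Mc1r, the melanocortin 1 receptor gene, had 0.954, 0.759 and 1.05. A block past the gene's end, centred 14.2 kb from the start, had 1.33, 1.31 and 1.51. For both of these flanking blocks the interval of each Braf library over EV included equal coverage as deposited. With equal totals the log2 ratio of Braf full medium over EV was -1.22 at the gene's end, -1.10 at Mc1r and -0.86 past the end.

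**Figure D3:**
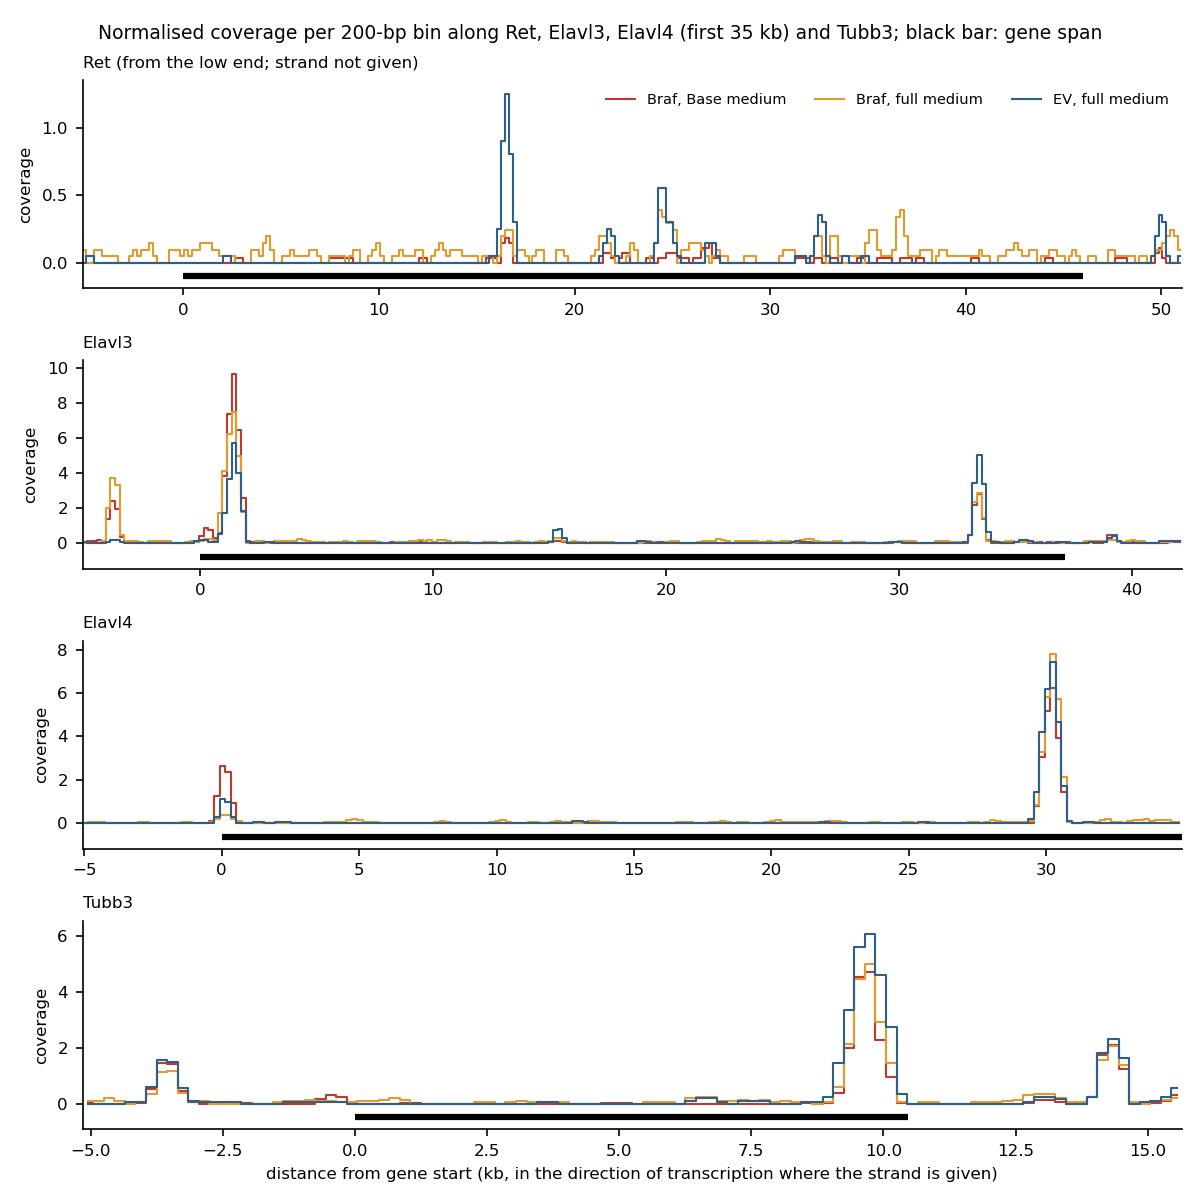
Normalised coverage per 200-bp bin (y axis) against distance in kb from the gene start (x axis) for Ret, Elavl3, the first 35 kb of Elavl4 and Tubb3, with 1 line per library and the gene span as a black bar; y axes differ between panels. Braf Base medium stands out at the Elavl4 start (2.63 in its highest bin), while the Ret block at 16 to 17 kb is highest in EV (1.25 in its highest bin).

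Cut into tiles of 1 kb, the 8 regions gave 343 tiles. In Braf Base medium against EV, 11 tiles were gained (3.21%) and 12 lost (3.50%), where 0.523% of all 1220903 tiles over protein-coding genes were gained and 1.07% lost. In Braf full medium against EV, 24 were gained (7.0%) and 5 lost (1.46%), where 3.31% of all were gained and 0.476% lost. In Braf Base medium against Braf full medium, 5 were gained (1.46%) and 23 lost (6.71%), where 0.222% of all were gained and 3.45% lost. The median log2 ratio of the member tiles equalled that over all tiles in each comparison, at 0, 0.58 and -0.58. With equal totals the splits were 9 gained and 15 lost in Braf full medium against EV, and 13 gained and 8 lost in Braf Base medium against Braf full medium. The shares over all tiles above are as deposited and cannot be set beside these splits. By gene, Braf Base medium against EV had 3 gained tiles in Elavl3, 2 each in Tlx3, Phox2a and Elavl4, and 1 each in Tlx1 and Tlx2. It had 4 lost tiles in Ret, 2 each in Tlx1, Tlx3 and Elavl4, and 1 each in Elavl3 and Tubb3. Tlx1, Tlx3, Elavl3 and Elavl4 thus had tiles of both kinds, counting the 5 kb on either side. The gained Tlx1 tile and a gained Tlx3 tile lie past the gene's end. Gained Elavl3 tiles centred at -3.55 and -4.55 kb from the start lie at Zfp653, and a gained Elavl4 tile is centred at -0.56 kb.

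The 35 blocks were mixed as well. A block can enter through the 1 library where it is high, so large ratios are partly built in. Blocks were drawn only at the 8 members, so the counts below have no share over all genes beside them. In Braf Base medium against EV, 8 blocks had a log2 ratio of at least 1, 10 of at most -1 and 17 between. In Braf full medium against EV the counts were 6, 9 and 20, and in Braf Base medium against Braf full medium 4, 8 and 23. With equal totals they were 10, 10 and 15, then 6, 16 and 13, and for Braf Base medium against Braf full medium 11, 6 and 18, so the balance between the Braf libraries turned. Which library stood highest depended on the scaling as well: Braf Base medium in 9 blocks, Braf full medium in 9 and EV in 17 as deposited, and 16, 5 and 14 with equal totals.

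**Figure D4:**
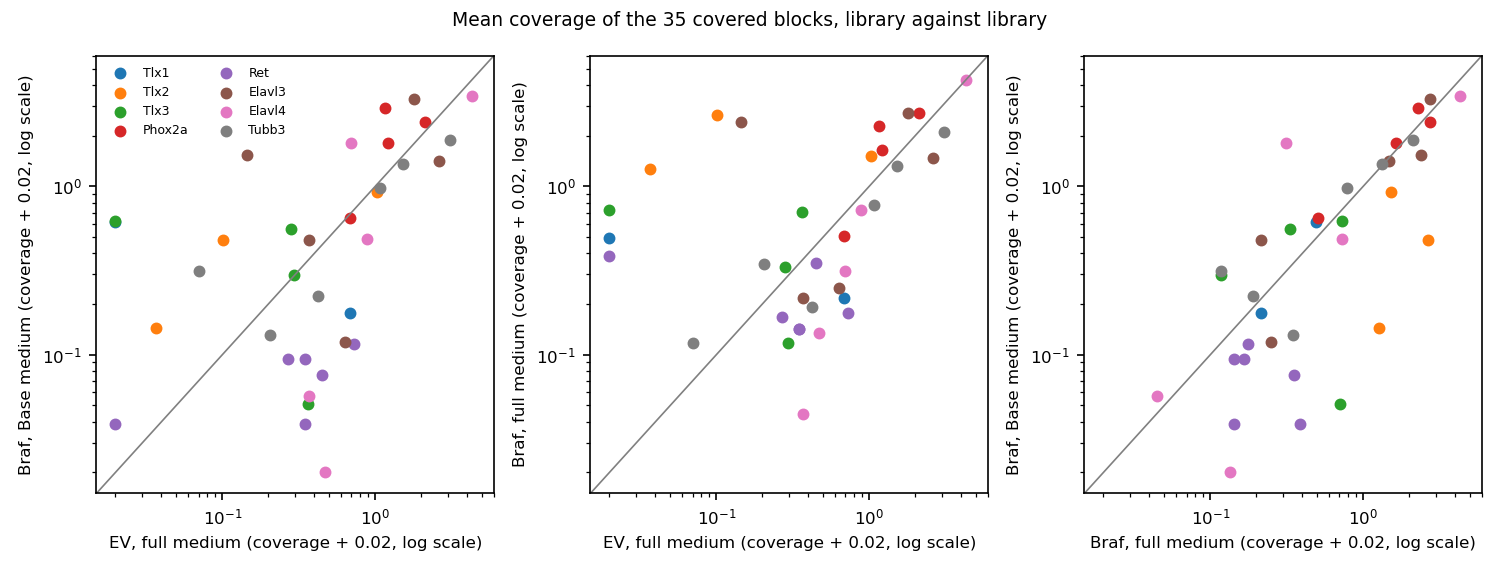
Each point is 1 of the 35 covered blocks, coloured by gene, with its mean coverage in one library (y axis) against another (x axis); both axes are logarithmic, 0.02 was added to every value, and the grey line marks equal coverage. The left panel sets Braf Base medium against EV, the middle one Braf full medium against EV and the right one Braf Base medium against Braf full medium; blocks above a coverage of 1 in EV stay within 2.54-fold of the line in the first 2 panels, and the scatter is wider below it.

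Other genes of these pathways were read from lists chosen with earlier results of these data known. Of 24 genes of RET and endothelin signalling and gut neural crest factors, 8 were gained and 0 lost in Braf Base medium against EV, where 5.62% of all genes were gained and 1.64% lost. In Braf full medium against EV, 8 were gained and 2 lost, where 7.09% of all genes were gained and 0.803% lost. With equal totals the splits were 8 gained and 1 lost, and 6 and 3, in these comparisons, with no share over all genes at that scaling. Edn3, the endothelin ligand needed for enteric neuron precursors, had 2.04 in Braf Base medium, 1.98 in Braf full medium and 0.160 in EV. Hand2, a bHLH factor of enteric neurons, had 0.946, 0.650 and 0.0183. Sox10, the neural crest and glial factor, had 0.573, 0.272 and 0.0228 at its high end, and Zeb2, a zinc finger factor of neural crest, had 0.246, 0.134 and 0. All of these were gained in Braf Base medium against EV. Artn, a ligand of the RET family of receptors, had 0.242, 0.365 and 0.00913, and Tfap2a, a neural crest factor, had 0.333, 0.365 and 0.0365.

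Among 34 neuronal and transmitter genes of enteric neurons, 6 were gained and 3 lost in Braf Base medium against EV. Over all genes, 5.62% were gained and 1.64% lost there. In Braf full medium against EV, 6 were gained and 1 lost, where 7.09% of all genes were gained and 0.803% lost. In Braf Base medium against Braf full medium, 2 were gained and 3 lost, where 1.95% of all genes were gained and 3.95% lost. With equal totals the last 2 splits were 3 and 5, and 5 and 2, again with no share over all genes at that scaling. Syt1, a synaptic vesicle calcium sensor, had 0.286 in Braf Base medium, 0.290 in Braf full medium and 0.0137 in EV, and Nefm, a neurofilament subunit, 0.414, 0.334 and 0.0456 at its high end. Th, which encodes tyrosine hydroxylase, had 0.0337, 0.365 and 0.507, and was lost in Braf Base medium against both other libraries. Cartpt, a neuropeptide precursor, had 0.0505, 0.0490 and 0.511 and was lost in both Braf libraries against EV. Tac1, the substance P precursor, had 0.0202, 0.2 and 0. Ncam1, a neural adhesion gene, had 0.165, 0.0223 and 0.0137 at its high end, and Elavl2, a relative of Elavl3 and Elavl4, had 0.216, 0.0579 and 0.173.

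Elavl2 was also the 1 of 9 relatives of the members (Elavl1, Elavl2 and 7 beta-tubulin genes) called as deposited. It was gained in Braf Base medium over Braf full medium, where 1.95% of all genes were gained. With equal totals 1 relative was lost in Braf full medium against EV and 2 were gained in Braf Base medium against Braf full medium. Of the enteric glia genes, 8 of 9 were measured, and their calls stand beside the shares over all genes given above. Kcna1, a potassium channel gene, had 0.381 in Braf Base medium, 0.0891 in Braf full medium and 0.0137 in EV at its high end and was gained in Braf Base medium against both. Gfap, the glial filament gene, had 0.633, 0.459 and 1.07 and was lost in Braf full medium against EV.

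Start windows of 12 colon epithelium markers had a summed coverage of 0.330 in Braf Base medium, 1.01 in Braf full medium and 0.452 in EV, and none was called as deposited. For 11 fibroblast and smooth muscle markers the sums were 1.16, 2.06 and 1.13, with 2 gained and 1 lost in either Braf library against EV, beside the shares over all genes given above. The gain of Tagln, a smooth muscle gene, in Braf full medium ended with equal totals, which left 1 gained and 1 lost. For 7 immune markers the sums were 0.276, 0.512 and 0.278, with none called as deposited. For 5 endothelial markers they were 0.620, 0.508 and 0.160, with 1 gained in each comparison, beside the same shares over all genes. Coverage at markers does not count cells, and the part of cell composition in the values above was not tested.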

How the data were processed

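MBD-seq libraries were made, per the labels' protocols, from 100 to 200 ng of genomic DNA sheared to 200 to 400 bp, enriched on MBD beads and sequenced as 50-bp single-end reads, 1 library per group. The submitters' processing notes list Bowtie2 and the mm10 build. The deposited table gives log2 normalised coverage per 200-bp bin, made by the authors, while the rule for counting and scaling bins is not stated in those sources. Values were returned to the linear scale and the floor that stands for bins with no read was set to 0. Coverage then rises in equal steps (100% of values within 0.001 of a whole step), and dividing the number of steps by the bins a read touches, 2.48, 2.42 and 2.49 in Braf Base medium, Braf full medium and EV, gave estimated reads. Where no read fell, 3 reads were taken as the most that a count of 0 allows. Intervals are Clopper-Pearson and cover counting error only, since reads are not independent molecules.

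Gene spans came from a RefSeq table of GRCm38.p6 without exons, and strand from the promoter table for 16456 of 20661 protein-coding genes, which gave 24866 windows. Exonic and intronic positions were therefore not assigned. Coverage means were compared as log2 ratios in the 3 pairs of libraries with no test. The code was tested on simulated data. It ran in Python 3.11.15 with numpy 2.4.6, pandas 2.3.3, scipy 1.17.1 and matplotlib 3.10.9.

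The members and gene lists were chosen with earlier results of these data known, and the block threshold and the stretches within blocks after the profiles were seen. Intervals for blocks and stretches do not allow for that choice. All 8 members are named. From each list, up to 4 called genes per comparison are named, largest absolute log2 ratio first. The comparison of Braf Base medium with Braf full medium for the RET and endothelin list is not reported here. For the member with the largest log2 ratio of Braf Base medium over EV, the 3 genes with the nearest pattern are named. Alternatives covered the scaling, background, added value, minimum, window and tile size, and local background in the 5 Mb on either side.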

Additional observations from a re-analysis of the deposited data

How the results depend on the processing

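No paired analysis was possible because each group holds 1 library. Of the recomputed counts of calls, 59 stayed within 1.5 times the reported count and 43 did not. Of the recomputed start window log2 ratios of members, 172 stayed within the counting interval as it reads on the log2 scale with the added value. Another 38 were labelled as moved out of it, and none was called in the opposite direction. Both the 172 and the 38 include ratios at the ends of Ret, where a count of 0 left no fold interval. The cause was not tested where the setting itself does not show it. Few estimated reads stood behind several start windows: at most 7 in any library at Ret, 10 at Tubb3 and 23 at Tlx1, and 4 and 1 in EV at the ends of Tlx2.

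Equal totals gave 9 gained and 15 lost tiles in Braf full medium against EV, 13 gained and 8 lost tiles in Braf Base medium against Braf full medium, 2 lost start windows in Braf full medium against EV and 2 gained in Braf Base medium against Braf full medium. Subtracting the background gave 11 gained and 9 lost tiles and 2 lost start windows in Braf full medium against EV, and 9 lost tiles in Braf Base medium against Braf full medium. Dividing by local background left 0 lost start windows in Braf Base medium against EV.

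With 4 times the added value, tiles gained and lost were 7 and 3 in Braf Base medium against EV, 7 and 2 in Braf full medium against EV, and 2 and 5 in Braf Base medium against Braf full medium, and start windows gained and lost in Braf Base medium against EV were 0 and 0. Dividing the added value by 4 gave 8 lost tiles and 1 lost start window in Braf full medium against EV. A minimum of 5 times the mean gave 5 lost tiles and 0 lost start windows in Braf Base medium against EV, 8 gained and 3 lost tiles in Braf full medium against EV, and 3 gained and 5 lost tiles in Braf Base medium against Braf full medium. No minimum gave 71 gained tiles and 5 gained start windows in Braf full medium against EV, and 71 lost tiles in Braf Base medium against Braf full medium.

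Windows of 500 bp to each side gave 0 lost in Braf Base medium against EV and 3 gained in Braf Base medium against Braf full medium, and windows of 2 kb gave 0 lost in Braf Base medium against EV. Tiles of 2 kb gave 7 lost in Braf Base medium against EV, 8 gained and 3 lost in Braf full medium against EV, and 3 gained and 9 lost in Braf Base medium against Braf full medium. Tiles of 600 bp gave 19 gained in Braf Base medium against EV, 48 gained and 12 lost in Braf full medium against EV, and 11 gained and 47 lost in Braf Base medium against Braf full medium. Larger and smaller tiles also change how many tiles there are. The recomputed counts have no share over all tiles or windows beside them.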
